A study of Mus musculus with 10 samples.

Results

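The Hippo pathway and TEAD genes described here were 10 of 21755 mouse protein-coding genes, chosen by name: the coactivators Yap1 and Wwtr1, the transcription factors Tead1, Tead2, Tead3 and Tead4, the kinases Lats1 and Lats2, and the cell junction regulators Amotl2 and Nf2. Their promoters were read in H3K4me3 CUT&Tag data, in which an antibody tethers a transposase to nucleosomes carrying trimethylated lysine 4 of histone H3, a mark of active and poised promoters. A gene was called marked in a library when a peak overlapped, by at least 1 bp, the interval reaching 1000 bp before and 100 bp past any of its annotated transcription start sites (TSS) in mouse build GRCm38. Where several peaks did, the one with the highest total signal was taken.

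In the Hippo pathway, NF2 and angiomotin-family proteins at cell junctions promote the activity of the LATS kinases, which phosphorylate the coactivators YAP1 and TAZ (encoded by Wwtr1) and keep them out of the nucleus. Unphosphorylated YAP1 and TAZ enter the nucleus and bind TEAD transcription factors, which bring them to DNA. In the mouse blastocyst this pathway is known for separating the trophectoderm, where TEAD4 with nuclear YAP1 turns on Cdx2, from the inner cells.

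The cells were naive extra-embryonic endoderm (nEnd), a culture model of the primitive endoderm (PrE), kept in the defined RACL medium on mouse embryonic fibroblast (MEF) coated plates. All came from 1 reporter line, OCT4-mCherry, had no treatment, and were sorted by OCT4-mCherry and by staining for the receptor PDGFRA. The 3 sorted populations were Oct4+ nEnd (OCT4-mCherry alone, 4 libraries), DP nEnd (both signals, 3 libraries) and Pdgfra+ nEnd (PDGFRA alone, 3 libraries), and the comparison asked how this promoter mark differs between a pluripotent-like population, a co-expressing one and a more committed endoderm one. Each library was a bulk sample, so fewer cells carrying a mark and less mark per cell cannot be told apart.

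Libraries held 3477 to 10545 peaks, the fewest in Oct4+ replicate 3 (3477) and replicate 4 (4887), and sequencing depth is not given in the peak files. Coverage was not scaled between libraries, so peaks were compared by rank: as a percentile among the peaks of their own library and, for the tests, among the 3616 genes with a promoter peak in all 10 libraries. Of 6 epiblast (Epi) markers, 6 were marked in every Oct4+ library, 5 to 6 in DP and 0 to 2 in Pdgfra+, whereas of 6 PrE markers 0 to 4 were marked in Oct4+ and 6 in every DP and Pdgfra+ library. Among 10 fibroblast markers, which the MEF layer could contribute, 8 were marked in no library, Twist1 was marked in 5 and Tbx15 in 2.

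The promoters of the coactivators, Tead3 and Amotl2 are shown to let a reader see the sequence under the peaks and the match to the TEAD motif GGAATG in each. They lie before the RefSeq start in build GRCm38.p6, 5′ to 3′ on the strand of the gene, with the motif (GGAATG, or CATTCC on the other strand) in capitals. Yap1 spans chr9:8004597-8004846 (minus strand), Wwtr1 chr3:57575911-57576160 (minus strand) and Tead3 chr17:28350818-28351055 (minus strand). The Tead3 stretch leaves out the bases next to its RefSeq start, at 28350805, that fall inside the GENCODE gene. For Amotl2, other annotated transcripts start both upstream and downstream of the RefSeq start, and the motif falls inside the GENCODE gene. For it only 30 bases at chr9:102717727-102717756 (plus strand) are given.
Yap1: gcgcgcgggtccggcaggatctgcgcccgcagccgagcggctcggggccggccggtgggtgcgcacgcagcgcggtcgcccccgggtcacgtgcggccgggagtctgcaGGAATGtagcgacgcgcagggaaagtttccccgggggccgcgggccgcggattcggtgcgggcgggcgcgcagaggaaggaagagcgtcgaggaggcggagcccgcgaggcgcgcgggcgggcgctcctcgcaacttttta
Wwtr1: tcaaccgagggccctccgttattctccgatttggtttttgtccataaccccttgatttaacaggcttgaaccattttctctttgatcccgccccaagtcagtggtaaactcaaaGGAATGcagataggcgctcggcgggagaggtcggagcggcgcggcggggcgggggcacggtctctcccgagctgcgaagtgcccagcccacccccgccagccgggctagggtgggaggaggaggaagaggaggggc
Tead3: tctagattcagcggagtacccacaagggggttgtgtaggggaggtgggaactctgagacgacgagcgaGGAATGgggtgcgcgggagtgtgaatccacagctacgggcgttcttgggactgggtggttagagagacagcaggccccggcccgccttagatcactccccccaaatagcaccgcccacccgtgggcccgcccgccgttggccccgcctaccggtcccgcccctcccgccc
Amotl2: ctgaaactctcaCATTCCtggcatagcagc

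RefSeq promoter sequences matched 8 of the 10 genes, all but Tead1 and Tead4. In the 250 bases before the start, the motif was present on either strand in 4 of these 8 (the 4 shown, 1 match each) and in 11.4% of 16433 protein-coding promoters of the same length. The first base of the match lay 141 bases before the RefSeq start in Yap1, 136 in Wwtr1, 182 in Tead3 and 65 in Amotl2. CG dinucleotides, which are dense in promoters that carry H3K4me3 in many cell types, numbered 44 in Yap1, 37 in Lats1, 31 in Lats2, 21 in Amotl2, 20 in Tead3, 20 in Nf2 and 18 in Wwtr1. Tead2 had 7. Over all promoters the median was 20 in genes marked in all 10 libraries and 3 in genes marked in none, so Tead2 lay between these medians and the other 7 near or above the higher one.

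With all called peaks, presence of the mark separated the populations for none of the 10 genes. With the 3477 strongest peaks of each library it did so for 2: Lats2 was then marked in all Pdgfra+ and no Oct4+ libraries, as were 2.25% of all protein-coding genes, and Nf2 in all Oct4+ and no Pdgfra+ libraries, as were 1.79%. Of the 10 genes, with all peaks, 8 were marked in all 10 libraries (80.0%, against 16.6% of all protein-coding genes): Yap1, Wwtr1, Tead1, Tead3, Tead4, Lats1, Amotl2 and Nf2. Lats2 was marked in 9 libraries and missed only in Oct4+ replicate 3, the library with the fewest peaks. Tead2 was marked in 2 libraries, Oct4+ replicate 1 and Pdgfra+ replicate 1, the libraries with the most peaks in their groups. In the 3 consensus lists, 1 per population, the same 9 genes were marked and Tead2 was in none. With all peaks of each library, no member was marked in every library of one population and none of another, a pattern found in 0.202% of protein-coding genes for Oct4+ over DP, 1.94% for DP over Oct4+, 0.359% for Oct4+ over Pdgfra+, 1.43% for Pdgfra+ over Oct4+, 0.11% for DP over Pdgfra+ and 0.0046% for Pdgfra+ over DP. For every member and pair, the two-sided p of Fisher's exact test was 1.0.

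The rank of the mark did differ between Oct4+ nEnd and the PDGFRA-expressing populations. By total signal (coverage added up along the peak), 4 of the 8 members tested ranked lower in Oct4+ than in DP nEnd (Amotl2, Tead3, Wwtr1 and Tead1) and none ranked higher, where 17.6% of the 3616 genes were called lower, 17.3% higher and 34.9% either way (limma on rank scores, Benjamini-Hochberg adjusted p under 0.05). Against Pdgfra+ nEnd, 5 of 8 ranked lower in Oct4+ (the same 4 and Tead4) and none higher, with 24.6% of genes called lower, 21.6% higher and 46.2% either way. Between DP and Pdgfra+ nEnd none of the 8 was called in limma, where 0.581% of genes were (21 genes, 297 at an unadjusted p under 0.05; 0.498% higher in DP and 0.083% higher in Pdgfra+). The pairs share libraries, so the counts are not independent of each other. The median difference in rank percentile over the 8 members was −23.8 points for Oct4+ minus DP and −24.4 points for Oct4+ minus Pdgfra+, beside medians of −0.17 and −0.82 over all genes tested, and −2.21 for DP minus Pdgfra+ beside −0.88. With missing peaks placed at the lowest rank, which kept 9 members and 9864 genes, the Oct4+ medians were smaller, at −10.7 and −10.4 beside 0.43 and 0.10.

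**Figure D1:**
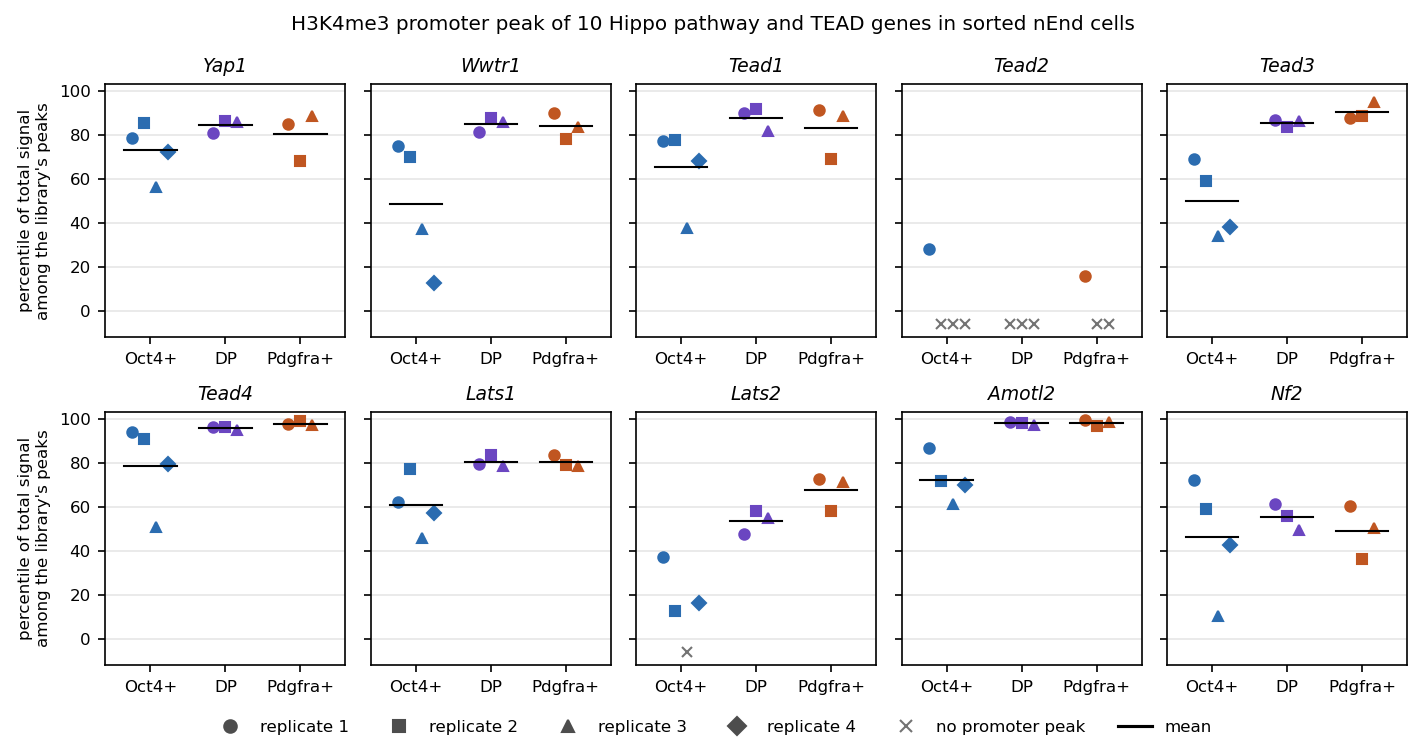
Each panel plots, for 1 gene, the percentile of total signal of its promoter peak among all peaks of the library (y axis) in the 4 Oct4+, 3 DP and 3 Pdgfra+ nEnd libraries (x axis); symbols are replicates, lines are group means where every library had a peak, and crosses are libraries with no promoter peak. Amotl2 lay at 61.2 to 86.6 in Oct4+ and 96.9 to 99.5 in the other populations, while the groups overlapped for Yap1 and Nf2.

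Amotl2 encodes an angiomotin-family scaffold that binds YAP1 at junctions and is itself a known target of YAP and TEAD. Its gene lies at chr9:102716672-102733418 on the plus strand. The percentile of its peak by total signal was 86.6, 71.9, 61.2 and 69.8 in Oct4+ replicates 1 to 4. In DP replicates 1 to 3 it was 98.7, 97.9 and 97.4, and in Pdgfra+ 99.5, 96.9 and 98.6. Every DP and Pdgfra+ library was thus above every Oct4+ library, and the DP and Pdgfra+ values overlapped. Among the 3616 common genes, the mean rank percentile was 50.1 in Oct4+, 94.3 in DP and 96.2 in Pdgfra+ nEnd. The rank score, a normal score of the rank, was lower in Oct4+ by −1.60 ± 0.22 (SE) against DP (limma, adjusted p = 0.000312) and by −1.82 ± 0.22 against Pdgfra+ (adjusted p = 7.55e-05), the smallest adjusted p of the members in both. Both calls were made in all 17 alternative limma fits, with adjusted p up to 0.00261 and 0.000621, whereas an exact two-sided permutation test of the percentiles gave an unadjusted p = 0.0571 in both pairs.

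For Amotl2 the width of the peak was called in 1 pair and its height in none. It was 8038, 4611, 4026 and 5030 bp wide in Oct4+ nEnd, 11312, 13386 and 9393 bp in DP and 12523, 4566 and 7392 bp in Pdgfra+. Every DP peak was wider than every Oct4+ peak, a pattern seen in 9.74% of 3882 genes, whereas 2 of 3 Pdgfra+ peaks fell within the Oct4+ range, those of replicate 3 and of replicate 2, the library with the narrowest peaks (median 2204.5 bp). By rank of width, Oct4+ was below Pdgfra+ nEnd (−1.46 ± 0.33, limma, adjusted p = 0.0130) and, against DP, −1.46 ± 0.33 was not called (adjusted p = 0.0857). The first of these was made in 15 of 17 alternative fits. It was lost without Pdgfra+ replicate 3 (limma, adjusted p = 0.0551, over the 17 from 0.00114 to 0.0551) and when replicate numbers were added to the fit. The second was called on quantile-normalized log2 widths (adjusted p = 0.00724) and with missing peaks at the lowest rank (0.0193), over 17 alternatives from 0.00724 to 0.212. Most of the added width lay inside the gene: past the outermost start site that all peaks contained, the peak reached 3624 to 5349 bp downstream in Oct4+, 7323 to 10364 bp in DP and 4060 to 10349 bp in Pdgfra+ nEnd. The annotated start site at 102722316, inside the gene, was marked in 1 of 4 Oct4+, 3 of 3 DP and 3 of 3 Pdgfra+ libraries, and was singled out after its values were seen. By highest coverage, the tallest point of the peak, the groups overlapped (percentile 37.6 to 75.7, 68.6 to 78.3 and 44.6 to 89.0) and neither difference was called (adjusted p = 0.630 and 0.288).

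**Figure D2:**
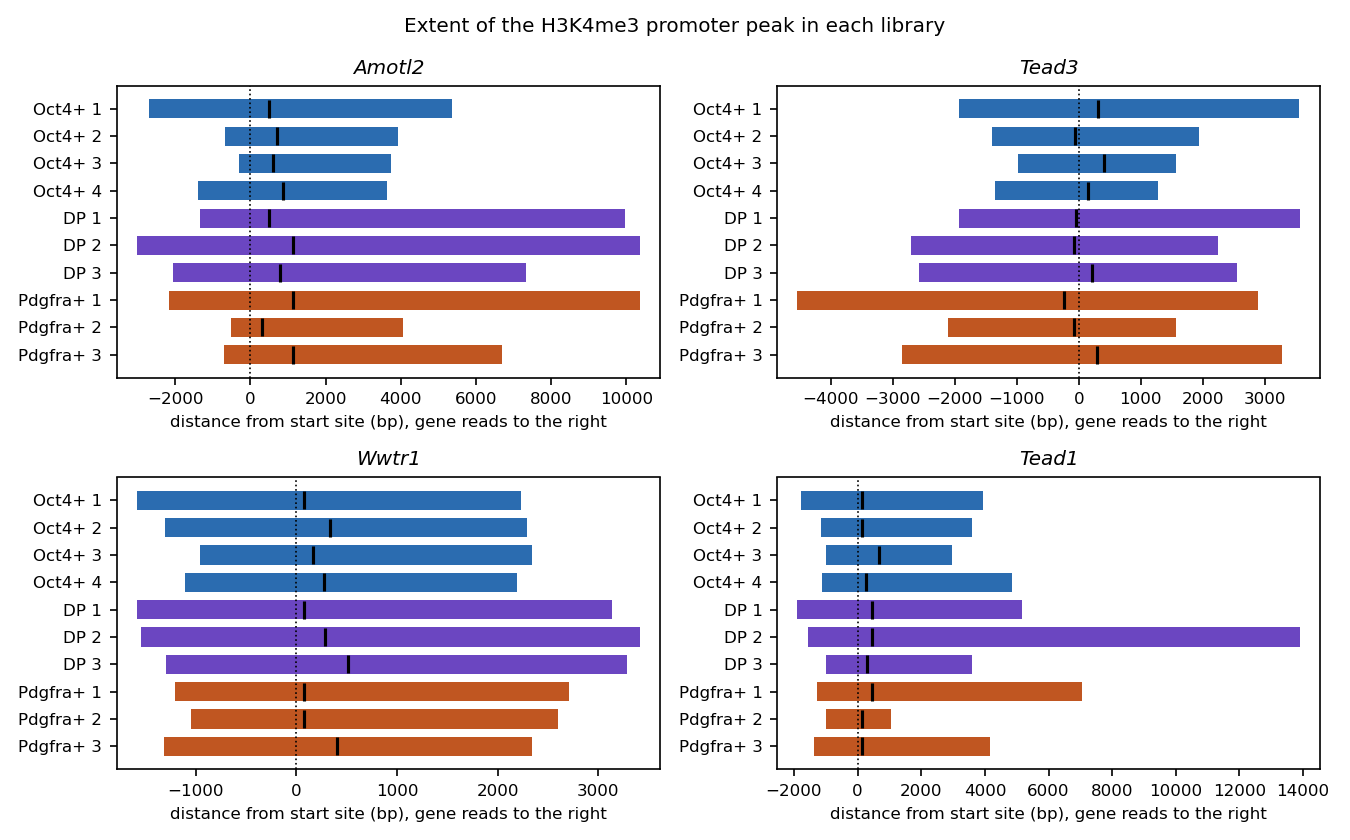
Bars show the promoter peak of Amotl2, Tead3, Wwtr1 and Tead1 in each library as distance in bp from the outermost TSS contained in the peaks (dotted line, x axis), with the gene reading to the right and a tick at the middle of the region of highest coverage. Oct4+ peaks of Amotl2 ended 3624 to 5349 bp into the gene and DP peaks 7323 to 10364 bp, and the Tead1 peak of DP replicate 2 extended 13912 bp.

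Nf2 encodes merlin, a junction protein upstream of the LATS kinases, at chr11:4765845-4849536 on the minus strand. Its percentile by total signal was 72.2, 59.1, 10.4 and 42.8 in Oct4+ nEnd, 61.1, 55.6 and 49.6 in DP and 60.5, 36.3 and 50.1 in Pdgfra+. The Oct4+ values spanned the others on both sides. Among common genes it was the lowest-ranked member, at a mean rank percentile of 16.0, 12.1 and 12.3. The rank score in Oct4+ minus DP was 0.16 ± 0.20 (limma, adjusted p = 0.583) and in Oct4+ minus Pdgfra+ 0.13 ± 0.20 (adjusted p = 0.644). Without 1 library the first ranged from 0.026 (without Oct4+ replicate 1) to 0.38 (without Oct4+ replicate 3) and the second from −0.0054 to 0.45 (without the same 2), none called. With missing peaks at the lowest rank the second was called higher in Oct4+ (0.36, limma, adjusted p = 0.0304), the only call in 16 alternatives (0.0304 to 0.985).

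Lats1 and Lats2 encode the kinases that phosphorylate YAP1 and TAZ. For Lats1, at chr10:7681214-7716460 on the plus strand, the percentile was 62.3, 77.0, 45.9 and 57.1 in Oct4+, 79.5, 83.4 and 78.6 in DP and 83.5, 79.1 and 78.5 in Pdgfra+ nEnd. Both PDGFRA-expressing groups lay above every Oct4+ library. The difference in rank score was −0.50 ± 0.23 against DP (limma, adjusted p = 0.114) and −0.60 ± 0.23 against Pdgfra+ (adjusted p = 0.0536), neither past the threshold, although the second passed it in 3 of 17 alternatives, among them without Oct4+ replicate 2 (adjusted p = 0.0428) and on quantile-normalized log2 values (0.0437), with a range from 0.0423 to 0.206. Without 1 library the differences ranged from −0.59 to −0.26 against DP and from −0.68 to −0.36 against Pdgfra+. The Lats1 peak also covered a promoter of Pcmt1, which encodes a protein repair methyltransferase, in all 10 libraries, so its signal belongs to both genes.

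Lats2, at chr14:57689662-57758388 on the minus strand, ranked in the order Oct4+, DP, Pdgfra+. Its percentile was 37.0, 12.6 and 16.4 in the 3 Oct4+ libraries that marked it, 47.5, 58.0 and 55.0 in DP and 72.7, 58.1 and 71.5 in Pdgfra+ nEnd. No value was shared between groups, and the lowest Pdgfra+ value lay only just above the highest DP value. Missing in Oct4+ replicate 3, it was not in the test of genes marked everywhere. In the fit without that library, its rank score in Oct4+ was lower than in DP by −1.13 ± 0.36 (limma, adjusted p = 0.0373) and than in Pdgfra+ by −1.82 ± 0.36 (adjusted p = 0.00304). With missing peaks tied at the lowest rank in all 10 libraries, the adjusted p was 0.0680 and 0.00334. For DP against Pdgfra+ the adjusted p was 0.600 and 0.655 in these fits, and an exact two-sided permutation test of the percentiles gave p = 0.10, the smallest that 3 against 3 libraries allow. The peak lay at the cluster of 5 start sites from 57744654 to 57746578 in all 9 libraries that marked it, with all 5 inside the peak in every one but Pdgfra+ replicate 3 (4 of 5), and it reached the outermost TSS, at 57758388, in none. A predicted protein-coding gene, Gm49361, shared it in all 9.

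Yap1 and Wwtr1 encode the paired coactivators, and whether their promoters differed from each other was not tested. Yap1, at chr9:7931999-8004596 on the minus strand, had a percentile of 78.5, 85.3, 56.5 and 72.5 in Oct4+, 81.1, 86.6 and 85.8 in DP and 84.8, 68.2 and 88.8 in Pdgfra+ nEnd. These ranges overlapped. Its rank score in Oct4+ minus DP was −0.17 ± 0.21 (limma, adjusted p = 0.560) and in Oct4+ minus Pdgfra+ −0.12 ± 0.21 (adjusted p = 0.655), and neither was called under any of 17 alternatives. Width (2489 to 5898 bp over the 10 libraries) gave no call either. By highest coverage its percentile was 83.1, 85.8, 74.0 and 82.9 in Oct4+, 80.8, 90.3 and 89.2 in DP and 76.0, 27.2 and 94.9 in Pdgfra+ nEnd, with no call and with Pdgfra+ replicate 2 far below the rest. A long noncoding RNA gene, Gm45494, shared the peak in all 10 libraries.

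Wwtr1, at chr3:57455649-57575910 on the minus strand, had a percentile of 74.8, 69.9, 37.3 and 12.5 in Oct4+ nEnd. It was 81.3, 87.6 and 85.9 in DP and 90.0, 78.2 and 83.5 in Pdgfra+. Every Oct4+ library lay below the others, while DP and Pdgfra+ overlapped. The Oct4+ libraries differed widely among themselves, with replicate 4 lowest. The mean rank percentile was 23.1, 60.0 and 62.5. The rank score was lower in Oct4+ by −1.17 ± 0.34 against DP (limma, adjusted p = 0.0226) and by −1.24 ± 0.34 against Pdgfra+ (adjusted p = 0.0128). The first call was lost without DP replicate 2 (adjusted p = 0.0701) or DP replicate 3 (0.0764), over 16 alternatives from 0.00599 to 0.0764, and the second was made in all 16. Without 1 library the differences ranged from −1.32 to −0.77 against DP and from −1.38 to −0.83 against Pdgfra+. The Wwtr1 peak was 3818, 3600, 3308 and 3296 bp wide in Oct4+, 4723, 4967 and 4580 bp in DP and 3916, 3644 and 3663 bp in Pdgfra+ nEnd. In bp, the DP peaks were the widest of the 3 groups without overlap (exact two-sided permutation test against Oct4+, p = 0.0286, the smallest that 4 against 3 libraries allow, and against Pdgfra+, p = 0.10). In bp, 15.2% of 7174 genes were wider in every DP than in every Pdgfra+ library. By rank of width among common genes, Oct4+ minus DP was not called (−0.62 ± 0.43, limma, adjusted p = 0.592). DP minus Pdgfra+ then had the opposite sign to that in bp and was not called (−0.23 ± 0.46, limma, adjusted p = 0.901).

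The 4 TEAD genes encode DNA-binding partners of YAP1 and TAZ with a shared TEA domain. Tead4, at chr6:128224288-128300823 on the minus strand, ranked above Tead1, Tead2 and Tead3 by total signal in all 10 libraries. Its percentile by total signal was 94.1, 90.7, 50.6 and 79.3 in Oct4+, 96.3, 96.4 and 94.8 in DP and 97.6, 99.0 and 97.0 in Pdgfra+ nEnd. By highest coverage it was 98.2, 89.1, 70.4 and 78.7 in Oct4+, 99.7, 99.8 and 99.3 in DP and 99.8, 99.4 and 99.5 in Pdgfra+, so that in all 6 PDGFRA-expressing libraries it was among the tallest 1% of peaks. By this measure the rank score was lower in Oct4+ by −1.59 ± 0.34 against DP (limma, adjusted p = 0.00336) and by −1.60 ± 0.34 against Pdgfra+ (adjusted p = 0.00223), and highest coverage called lower in Oct4+ 6.66% and 7.83% of genes. By total signal the difference was −1.17 ± 0.25 against Pdgfra+ (adjusted p = 0.00356) and −0.70 ± 0.25 against DP, which narrowly missed the threshold (adjusted p = 0.0520) and passed it in 3 of 17 alternatives, without Oct4+ replicate 1 (0.0252) or Pdgfra+ replicate 2 (0.0306) and on quantile-normalized log2 values (0.0466), with a range from 0.0252 to 0.142. Without 1 library the differences by total signal ranged from −0.85 to −0.44 against DP and from −1.31 to −0.88 against Pdgfra+. Width did not follow: 8674, 6648, 3616 and 7097 bp in Oct4+, 6688, 8638 and 4412 bp in DP and 6505, 3492 and 5525 bp in Pdgfra+ nEnd, with overlapping groups. Tead4 was thus called on height and not on width, and Amotl2 on width and not on height, a difference between the genes that was not tested.

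Tead3, at chr17:28331671-28350817 on the minus strand, was the family member called by all 3 measures in at least one pair. Its percentile by total signal was 69.0, 58.9, 34.2 and 38.0 in Oct4+, 86.8, 83.7 and 86.3 in DP and 87.6, 88.8 and 94.9 in Pdgfra+ nEnd. Every Oct4+ library lay below the others. DP and Pdgfra+ did not overlap by this percentile but did by rank among the common genes (64.4, 53.9 and 65.6 against 59.4, 77.7 and 87.7). The mean rank percentile was 18.8, 61.3 and 74.9, and the rank score was lower in Oct4+ by −1.21 ± 0.24 against DP (limma, adjusted p = 0.00288) and by −1.64 ± 0.24 against Pdgfra+ (adjusted p = 0.000287). DP minus Pdgfra+ was −0.43 ± 0.25 (limma, adjusted p = 0.738) and was not called. The Tead3 peak was 5475, 3338, 2541 and 2619 bp wide in Oct4+, 5504, 4951 and 5123 bp in DP and 7425, 3675 and 6120 bp in Pdgfra+ nEnd. By highest coverage its percentile was 69.7, 58.9, 66.8 and 39.7, then 87.6, 80.5 and 81.2, and then 88.5, 77.9 and 97.5, with every Oct4+ library below the others. Against Pdgfra+ nEnd, highest coverage (−1.35 ± 0.37, adjusted p = 0.0146) and width (−2.25 ± 0.43, adjusted p = 0.00515) were also called lower in Oct4+, while against DP neither was (adjusted p = 0.166 and 0.279). The call on coverage was lost without Pdgfra+ replicate 3 (adjusted p = 0.0975, over 17 alternatives 0.0102 to 0.0975). With the interval widened to 2500 bp in both directions, the total-signal calls ended (adjusted p = 0.626 and 0.0770, over 17 alternatives 0.00167 to 0.626 and 0.000194 to 0.0770), and in Oct4+ replicates 1, 2 and 4 the wider interval reached a stronger peak, at percentiles 84.9, 86.4 and 79.4 at the far end of the gene. With this interval the call on width also ended (0.192, over 17 alternatives 0.00226 to 0.192), as did that on coverage (0.0664). The Tead3 peak of Pdgfra+ replicate 1, the widest, also reached a promoter of the protein-coding gene Tulp1.

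Tead1, at chr7:112679318-112906807 on the plus strand, gave the least settled call. Its percentile was 77.3, 77.5, 37.8 and 68.4 in Oct4+, 90.0, 92.0 and 82.0 in DP and 91.2, 69.2 and 88.7 in Pdgfra+ nEnd. DP lay above every Oct4+ library, and Pdgfra+ replicate 2 lay within the Oct4+ range. The rank score was lower in Oct4+ by −0.71 ± 0.21 against DP (limma, adjusted p = 0.0247) and by −0.58 ± 0.21 against Pdgfra+ (adjusted p = 0.0426). Against DP the call was lost without Oct4+ replicate 3 (0.0946), DP replicate 1 (0.0859) or DP replicate 2 (0.104) and with missing peaks at the lowest rank (0.0678), and was made in 13 of 17 alternatives (0.00940 to 0.104). Against Pdgfra+ it was lost without Oct4+ replicate 1 (0.0786), 2 (0.0642) or 3 (0.177), DP replicate 1 (0.0578) or 2 (0.0540), or Pdgfra+ replicate 1 (0.129) or 3 (0.155), with missing peaks at the lowest rank (0.167) and with equal numbers of peaks (0.102), and was made in 8 of 17 (0.00973 to 0.177).

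Tead1 also carried signal at a downstream promoter. In Oct4+ replicates 1, 2 and 4 a separate broad and low peak of 11639, 8448 and 9357 bp covered the promoter of a protein-coding transcript that starts at 112691698, inside the gene, beside the stronger peak at the first start sites. Its percentile was 68.2, 47.5 and 37.2 by total signal and 10.5, 1.27 and 0.153 by highest coverage. These separate peaks were not part of the test above. In DP replicate 2 a single peak of 15476 bp spanned both promoters, so the total signal tested there included the downstream one, and this is one of the libraries without which the call against DP was lost. In DP replicates 1 and 3 and all 3 Pdgfra+ libraries no peak reached the downstream promoter. That promoter was marked in 3 of 4 Oct4+, 1 of 3 DP and 0 of 3 Pdgfra+ libraries, and since this start site was singled out after its values were seen, no test is given. A long noncoding RNA gene, 2310014F06Rik, shared the main Tead1 peak in all 10 libraries.

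Tead2, at chr7:45215753-45233644 on the plus strand, is known for expression in early embryos, and was the member with the least mark. It ranked at percentile 28.1 in Oct4+ replicate 1 and 15.9 in Pdgfra+ replicate 1, with peaks of 3121 and 3519 bp. The other 8 libraries had no peak at any of its 16 annotated start sites, and a mark too weak to be called as a peak was not detectable.

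**Figure D3:**
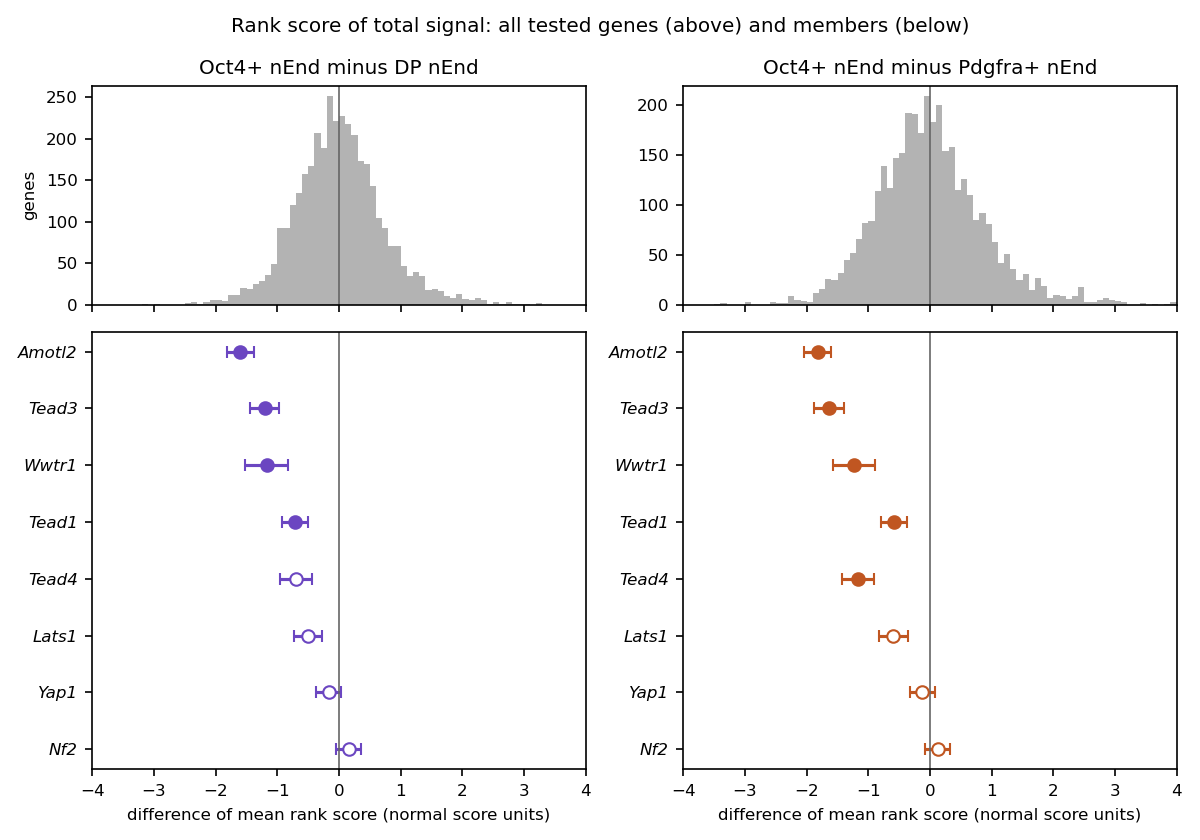
The upper panels are histograms of the difference in mean rank score of total signal over the 3616 genes tested, for Oct4+ minus DP (left) and Oct4+ minus Pdgfra+ nEnd (right). The lower panels show the 8 members tested with SE bars, filled where the adjusted p was under 0.05: 4 filled points on the left and 5 on the right, all below 0.

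Counted without a model, the percentile by total signal of every DP library was above every Oct4+ library in 6 of the 8 members, where 22.8% of 3882 genes did so, and of every Pdgfra+ library in 5 of the 8, where 18.5% of 3616 genes did so. The reverse held for no member in either pair (10.6% and 9.35% of genes). Of the 9 members marked in all 6 PDGFRA-expressing libraries, 3 (Tead3, Tead4 and Lats2) ranked higher in every Pdgfra+ than in every DP library, where 7.25% of 7174 genes did so, and 0 lower (3.01%). Peak lists differed in length, so the counts were repeated, after the data were seen, on ranks among the genes marked in every library of the pair. By these ranks 6 of 8 members were higher in every DP than in every Oct4+ library (25.2% of genes, 22% in reverse) and 5 of 8 in every Pdgfra+ library (23.8%, 21.4% in reverse), with 0 in reverse. Between DP and Pdgfra+ the count was 2 of 9 (Tead4 and Lats2; 11.1% of genes), since Tead3 overlapped, and 0 in reverse (9.67%). Exact two-sided permutation tests on these percentiles gave p = 0.0571 for Amotl2, Tead3 and Lats1 in both pairs and larger values for the rest, none under 0.05, where 8.71% and 10.1% of all genes tested had one, in a design whose smallest p is 0.0286.

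By highest coverage, limma called 1 of the 8 members lower in Oct4+ than in DP nEnd (Tead4) and 0 higher, where 6.66% of genes were lower, 6.06% higher and 12.7% either. Against Pdgfra+ it called 2 lower (Tead4 and Tead3) and 0 higher, with 7.83%, 7.55% and 15.4% of genes. Between DP and Pdgfra+ it called 0 members, with 0.0277% of genes in each direction and 0.0553% in either (82 genes at an unadjusted p under 0.05). Without a model, the height percentile of every DP library was above every Oct4+ library in 4 of 8 members (Wwtr1, Tead1, Tead3 and Tead4; 12.7% of genes) and below in 0 (9.79%). Every Pdgfra+ library was above every Oct4+ library in 2 (Tead3 and Tead4; 6.06%) and below in 0 (6.64%). Nf2 was higher in every DP than in every Pdgfra+ library, 1 of 9 members against 2.79% of genes, and the reverse held for 0 (4.22%).

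Width gave the fewest calls. Limma called 0 of 8 members between Oct4+ and DP nEnd, where 0.111% of genes were wider by rank in Oct4+, 0.083% in DP and 0.194% in either (481 at an unadjusted p under 0.05). Against Pdgfra+ it called 2 members narrower in Oct4+ (Tead3 and Amotl2) and 0 wider, with 3.21% of genes narrower, 5.17% wider and 8.38% either. Between DP and Pdgfra+ it called 0 members and 0.47% of genes, all wider by rank in DP (392 at an unadjusted p under 0.05). In bp, 3 of 8 members were wider in every DP than in every Oct4+ library (Wwtr1, Lats1 and Amotl2; 9.74% of genes) and 0 narrower (1.34%). Between Oct4+ and Pdgfra+ 0 members differed without overlap (9.96% of genes wider in Oct4+, 0.581% in Pdgfra+). Wwtr1 was wider in every DP than in every Pdgfra+ library, 1 of 9 members against 15.2% of genes.

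Other Hippo genes, 47 in a list of 5 roles drawn up for comparison, held 19 marked in all 10 libraries, 6 in none and 22 in some. By role, 9 of 16 upstream and junction genes, 4 of 11 of the kinase core, 6 of 9 inhibitors of the kinase core, 0 of 4 TEAD cofactors and 0 of 7 YAP and TEAD targets were marked in all 10. By total signal 6 of the 19 tested were called between Oct4+ and DP nEnd (3 lower and 3 higher in Oct4+), 11 of 19 between Oct4+ and Pdgfra+ (8 lower, 3 higher), and 0 of 19 between DP and Pdgfra+ in limma. The counts against DP and Pdgfra+ were 31.6% and 57.9% of the 19 tested, beside 34.9% and 46.2% of all 3616 genes tested. The calls in this list thus ran in both directions.

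Among upstream and junction genes, Ptpn14, a phosphatase that binds YAP1, had a mean rank percentile of 29.3 in Oct4+, 72.9 in DP and 78.7 in Pdgfra+ nEnd (limma, adjusted p = 0.000336 and 6.73e-05 against Oct4+). The scaffold Dlg5 went from 3.64 to 41.7 and 54.5 (adjusted p = 0.00159 and 0.000382) and the polarity protein Pard3 from 44.3 to 76.4 and 81.6 (0.00401 and 0.000827). Fat1, an atypical cadherin, ran the other way, at 71.4, 36.0 and 42.1 (0.00105 and 0.00235). Wwc2, Tjp1 and Frmd6 were called lower in Oct4+ than in Pdgfra+ (0.00601, 0.00709 and 0.0225) and were not called against DP (0.0679, 0.0886 and 0.125). The Tjp1 call was lost with missing peaks at the lowest rank (0.496, over 16 alternatives 0.00370 to 0.496). The Frmd6 call was lost without Oct4+ replicate 3 (0.0724) or 4 (0.0604) or Pdgfra+ replicate 2 (0.0852) or 3 (0.0705), and was made in 12 of 17 alternatives (0.00820 to 0.0852).

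Of the kinase core, the upstream kinase Map4k4 was called higher in Oct4+ than in DP and Pdgfra+ nEnd (limma, adjusted p = 0.0293 and 0.0352). Against DP this was lost without Oct4+ replicate 3 (0.0546) or 4 (0.0731) or DP replicate 2 (0.0549) or 3 (0.128), and was made in 11 of 16 alternatives (0.00789 to 0.128). Against Pdgfra+ it was lost without Oct4+ replicate 4 (0.0846) or Pdgfra+ replicate 2 (0.178) or 3 (0.0652), and was made in 12 of 16 (0.00888 to 0.178). Among inhibitors of the core, Mob4, a subunit of the STRIPAK phosphatase complex, stood at a mean rank percentile of 53.4 in Oct4+ against 6.79 in DP and 10.1 in Pdgfra+ (adjusted p = 0.000732 and 0.000654). The LIM proteins Ajuba (adjusted p = 0.0100) and Wtip (0.0174) were called lower in Oct4+ than in Pdgfra+. The Wtip call was lost with missing peaks at the lowest rank (0.228), with equal numbers of peaks (0.0869) and without Oct4+ replicate 3 (0.0587) or Pdgfra+ replicate 3 (0.0751), over alternatives 0.0109 to 0.228.

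**Figure D4:**
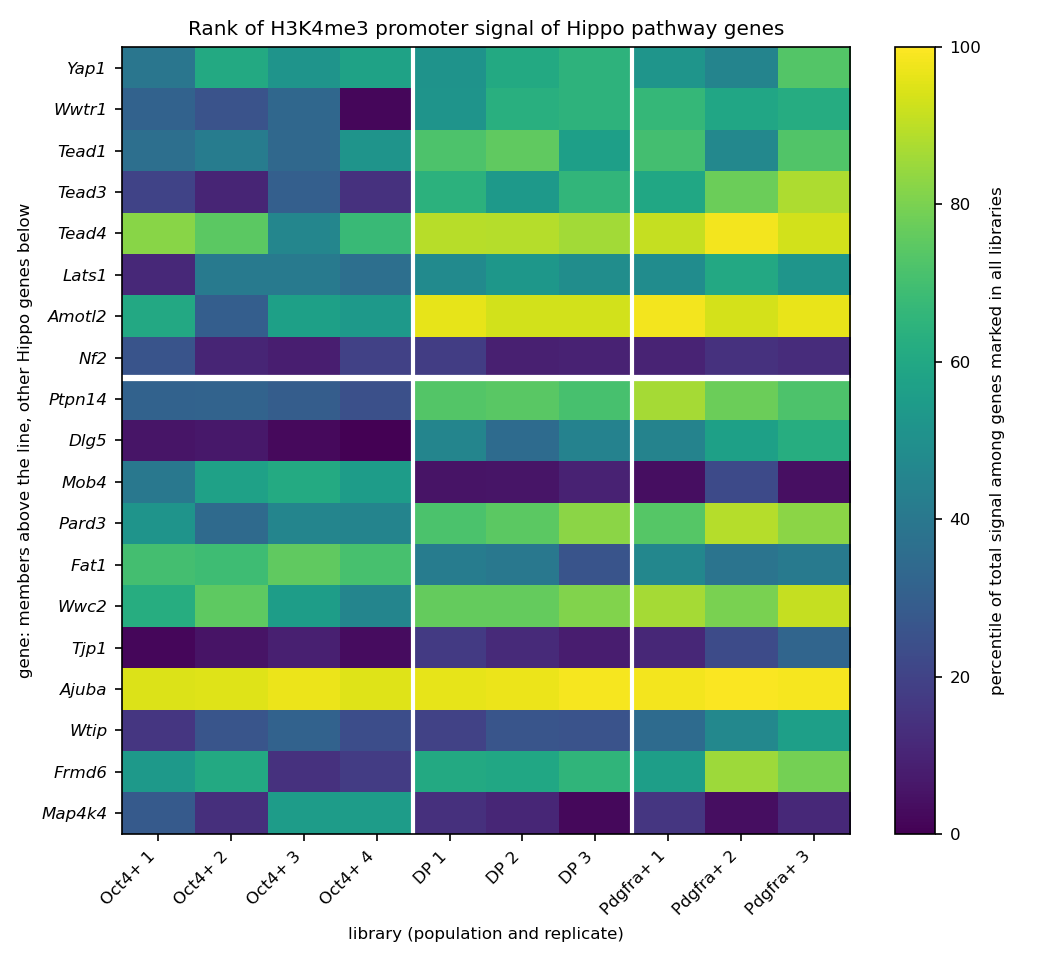
Colour gives the percentile of total signal among the 3616 genes marked in all libraries, for the 8 members tested (above the white line) and the 11 other Hippo genes called in a pair (below), in the 10 libraries (x axis). Amotl2, Tead3, Ptpn14, Dlg5 and Pard3 ranked lower in Oct4+ and Mob4 and Fat1 higher.

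Of 7 YAP and TEAD targets, 0 to 3 were marked in Oct4+ libraries, 4 to 5 in DP and 4 to 5 in Pdgfra+, where 18.5% to 43.8%, 39.4% to 45.2% and 33.8% to 51.2% of all protein-coding genes were. Gata3, a trophectoderm transcription factor, was marked in 0 of 4 Oct4+, 3 of 3 DP and 3 of 3 Pdgfra+ libraries, at percentiles 6.76 to 58.2. Cdx2, the trophectoderm homeobox gene, was marked in 0 of 4, 2 of 3 and 2 of 3. Crim1 was at 95.8 to 99.2 in all 6 PDGFRA-expressing libraries, at 34.1 and 49.1 in Oct4+ replicates 1 and 2 and unmarked in replicates 3 and 4. Ccn1 and Ccn2, the secreted proteins also called Cyr61 and Ctgf, were marked in 1 and 2 of 4 Oct4+ and in every DP and Pdgfra+ library, whereas Ankrd1 and Axl were marked in none. The Amot gene, an angiomotin related to Amotl2, was marked in 0 of 4, 3 of 3 and 2 of 3, and was named after its values were seen, with Crim1, Cdx2, Ccn1 and Ccn2. In all DP and no Oct4+ libraries were 2 of the 47 genes (Amot and Gata3) and in all Pdgfra+ and no Oct4+ libraries 1 (Gata3), beside 1.94% and 1.43% of all protein-coding genes. Of the TEAD cofactors, Vgll1, Vgll2 and Vgll3 were marked in no library and Vgll4 in 9.

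The genes whose rank scores were most like those of Amotl2, the member with the smallest adjusted p, were Esrp2 (Pearson r = 0.982), 9130213A22Rik (0.980) and 2210011C24Rik (0.975) of 3616 genes over the 10 libraries. Esrp2 encodes an epithelial splicing regulator. The 10 points share their libraries and fall into populations, so these values describe likeness in rank only.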

How the data were processed

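H3K4me3 CUT&Tag was performed by the authors on sorted nEnd cells in 10 libraries. Per the labels and the study's methods, reads were demultiplexed with bcl2fastq 2.19.1, aligned to mm10 with Bowtie2 and handled with SAMtools 1.12, bedtools 2.26.0 and deepTools, and peaks were called per library by SEACR (stringent) against IgG. The deposited peak lists hold, for each peak, total signal and highest coverage, which carry no scaling across libraries. Consensus lists, made by the authors with DiffBind, hold 1 set of regions per population with a constant value of 1, which was not used. TSS were taken from GENCODE M21 (autosomes and X). Rank scores were fitted with limma 3.58.1 in R 4.3.3, all 10 libraries in 1 fit, with Benjamini-Hochberg adjustment over 3616 genes. On simulated data, with 200 of 3616 genes changed, 90.5%, 88.5% and 85.5% of genes changed by 1 log2 unit were recovered for Oct4+ against DP, Oct4+ against Pdgfra+ and DP against Pdgfra+ nEnd, and 43%, 38% and 32% of those changed by 0.5. Unchanged genes called numbered 13, 5 and 10 at 1 log2 unit and 5, 3 and 1 at 0.5. In the data a far larger share was called in the Oct4+ pairs (34.9% and 46.2%), and recovery with so many genes changed was not tested. Exact permutation and Fisher tests used Python 3.11.15 and scipy 1.17.1. P-values measure the spread between replicate libraries of 1 cell line. The text names the 10 members, other Hippo genes called or marked in all of one group and none of another (at most 12 by adjusted p), markers, genes sharing a member's peak and the 3 genes most like the leading member. The members and lists were chosen with earlier results of these data known. Alternatives covered the score, missing peaks, window, overlap, number of peaks, TSS set, pairing, single libraries and test.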

Additional observations from a re-analysis of the deposited data

How the results depend on the processing

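Members called in the Oct4+ comparisons were lower in Oct4+ under every alternative run, except Nf2, called higher in Oct4+ than in Pdgfra+ by total signal with missing peaks at the lowest rank (0.36, limma, adjusted p = 0.0304). By total signal, 4 of 8 were called for Oct4+ against DP nEnd and 2 to 5 without 1 library (2 without DP replicate 2, where 22.7% of all genes were called against 34.9% with all libraries), and 5 for Oct4+ against Pdgfra+ and 4 to 5 without 1 library. Without 1 library, 22.7% to 37.0% and 38.4% to 46.2% of all genes were called. Between DP and Pdgfra+ it was 0.138% to 1.05% of genes and 0 members. With the 3477 strongest peaks per library the counts were 3 of 6 tested against DP (33% of genes) and 3 of 6 against Pdgfra+ (44.0%). With missing peaks at the lowest rank they were 3 of 9 (32.2%) and 6 of 9 (42.4%), 1 of these 6 higher in Oct4+. With the 2500 bp window they were 3 of 8 (34.7%) and 4 of 8 (46.1%). By highest coverage the counts were 1 (1 to 2 without 1 library, 2 without Oct4+ replicate 1, with 20.4% of genes) and 2 (1 to 3, 1 without Pdgfra+ replicate 3, with 11.2%, and 1 with the 2500 bp window, with 15.4%). The share of all genes called by highest coverage without 1 library ranged from 4.26% to 20.4% and from 8.41% to 23.9%. By width they were 0 (0 without 1 library, 1 on quantile-normalized values, with 0.277%, and 1 with missing peaks at the lowest rank, with 6.85%) and 2 (1 to 3, 1 without Pdgfra+ replicate 3, with 3.65%, and 1 with the 2500 bp window, with 8.42%). Unadjusted exact permutation tests gave 0 and 0 by total signal (8.71% and 10.1% of all genes), 0 and 1 by highest coverage (8.35% and 7.52%) and 1 and 0 by width (6.65% and 5.25%), and could not give a value under 0.05 for DP against Pdgfra+. No member was marked in all of one population and none of another, except that with equal numbers of peaks 2 changed sides between Oct4+ and Pdgfra+ (Lats2 in Pdgfra+, Nf2 in Oct4+). The cause of these changes was not tested beyond the fewer genes or libraries of each alternative. Yap1 in Oct4+ minus Pdgfra+ turned from −0.12 to 0.0052 with equal peaks and 0.094 without Pdgfra+ replicate 3 (range −0.30 to 0.094), and Nf2 from 0.13 to −0.0054 without Oct4+ replicate 1 (range −0.0054 to 0.45), none called. On quantile-normalized values 5 and 6 members were called by total signal (Tead4 and Lats1 added), with 36.1% and 47.3% of genes.

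The labels do not say that replicate numbers mark a shared sort or day. Deviations of same-numbered libraries correlated at −0.112 to 0.229 in 9 pairs, with 7 over 0.1 and both pairs of DP replicate 2 below 0. Those of differently numbered libraries correlated at −0.340 to 0.181. The main fits did not treat the numbers as pairs, and a fit that did is given here. With the numbers as a replicate block, 4, 6 and 0 members were called by total signal in the 3 pairs (Lats1 added against Pdgfra+, limma, adjusted p = 0.0423), with 29.2%, 42.5% and 0.387% of all genes. By highest coverage 1, 2 and 0 were called (10.8%, 14.0% and 0.111%), and by width 0, 1 and 0 (0.166%, 4.65% and 0.249%), where Amotl2 against Pdgfra+ was lost (0.0546). Of the other Hippo genes, the block ended the total-signal calls on Map4k4 against DP (0.0742) and Pdgfra+ (0.0873) and on Frmd6 against Pdgfra+ (0.0606). Sequencing depth is not given, and the shallow peak lists of Oct4+ replicates 3 and 4 limit the test to genes marked there.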
